A study of Rattus norvegicus with 8 samples.

Results

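A group of 9 interferon-stimulated genes (Stat2, Irf7, Irf9, Mx1, Mx2, Isg15, Ifit3, Rsad2 and Gbp2) was followed across 8 arrays of injured rat dorsal root ganglion (DRG). The genes were chosen by name as targets or transducers of interferon signalling, and each was read from the probe set that carried its symbol alone, which gave 9 genes of the 14497 with a probe set of their own. The tissue was the ipsilateral L5 DRG of adult male Wistar rats, taken 14 days after the L5 spinal nerve had been cut. For 4 samples the histone deacetylase inhibitor (HDACI) MS-275 had been infused intrathecally at 30 nmol per day from an osmotic pump. For another 4 samples vehicle, 30% dimethyl sulfoxide in saline, had been given by the same route. The methods call the 4 samples of a group biological replicates, and whether each came from 1 rat or a pool is not given in the sources used here. Both groups carried the nerve injury, the catheter and the pump, and infusion began 5 days before the injury in the study's protocol. The groups were taken from the sample titles and source names, since the treatment text is the same for all samples and names MS-275 for the vehicle samples too. Values are on the log2 scale, so that a difference of 1 is a doubling, and they compare arrays within a gene, not genes with each other.

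Interferons are secreted proteins that warn cells of infection or damage. Type I interferons bind a receptor whose kinases, Jak1 and Tyk2, phosphorylate Stat2. Stat2 and Irf9 are parts of the complex ISGF3, which binds the interferon-stimulated response element (ISRE) in the promoters of its targets. Irf7 is itself a target and, once activated, drives further interferon production. The effectors act against viruses by different routes: Mx1 and Mx2 are dynamin-like GTPases, Isg15 is a ubiquitin-like protein conjugated to other proteins, Ifit3 belongs to a family that binds foreign RNA or its partners, and Rsad2 (viperin) makes a nucleotide that stops viral polymerases. Gbp2 is a guanylate-binding protein known above all as a target of interferon gamma, which acts through the gamma-activated sequence (GAS). These roles are known mainly from human and mouse cells.

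Promoter windows from RefSeq (assembly GRCr8, 300 bases across the annotated gene start) were matched for 7 of the 9 genes, all but Mx2 and Isg15. Both strands were searched for the ISRE core (GAAA, any 2 bases, GAAA) and for the GAS element TTCNNNGAA. The ISRE core was found in 4 of the 7 windows, those of Irf7, Ifit3, Rsad2 and Gbp2, against 3.77% of all 27457 promoter windows of the same length. With 1 mismatch allowed it was found in the same 4 genes, against 37.0% of all windows. The GAS element was found in 1 of the 7, that of Irf9, against 8.68% of all windows. With 1 mismatch allowed it was found in 7 of 7, against 73.1% of all windows. The promoters holding the ISRE core are shown because 3 of these genes, Irf7, Ifit3 and Rsad2, were high in the same array and the fourth, Gbp2, was not. Each stretch is read 5' to 3' along the gene's strand and covers the 200 bases before the start. The capitals mark the ISRE core, which in all 4 lies on the opposite strand and so appears as its reverse complement. The stretch of Irf7 lies at chr1:205800024-205800223 on the minus strand, that of Ifit3 at chr1:241527126-241527325 on the plus strand, that of Rsad2 at chr6:48788121-48788320 on the minus strand and that of Gbp2 at chr2:234005527-234005726 on the plus strand.
Irf7: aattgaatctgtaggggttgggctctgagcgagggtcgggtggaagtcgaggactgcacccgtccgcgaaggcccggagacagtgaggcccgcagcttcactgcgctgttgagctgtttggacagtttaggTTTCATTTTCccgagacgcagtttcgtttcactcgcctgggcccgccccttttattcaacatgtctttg
Ifit3: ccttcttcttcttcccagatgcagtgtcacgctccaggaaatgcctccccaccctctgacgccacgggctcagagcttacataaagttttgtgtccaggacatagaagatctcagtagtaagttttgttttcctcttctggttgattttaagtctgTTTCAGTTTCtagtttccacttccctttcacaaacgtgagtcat
Rsad2: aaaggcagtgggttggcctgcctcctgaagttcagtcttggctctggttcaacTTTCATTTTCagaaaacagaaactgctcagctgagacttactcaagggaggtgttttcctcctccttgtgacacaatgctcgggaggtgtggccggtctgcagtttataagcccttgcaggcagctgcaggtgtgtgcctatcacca
Gbp2: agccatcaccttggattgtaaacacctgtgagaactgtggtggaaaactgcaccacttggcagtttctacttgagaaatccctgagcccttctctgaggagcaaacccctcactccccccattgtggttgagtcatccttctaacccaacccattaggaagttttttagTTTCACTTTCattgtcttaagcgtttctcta
The core ran from -69 to -60 in Irf7, from -44 to -35 in Ifit3, from -147 to -138 in Rsad2 and from -31 to -22 in Gbp2, where -1 is the base before the annotated start. A match is a description of the letters and no evidence of binding.

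**Figure D1:**
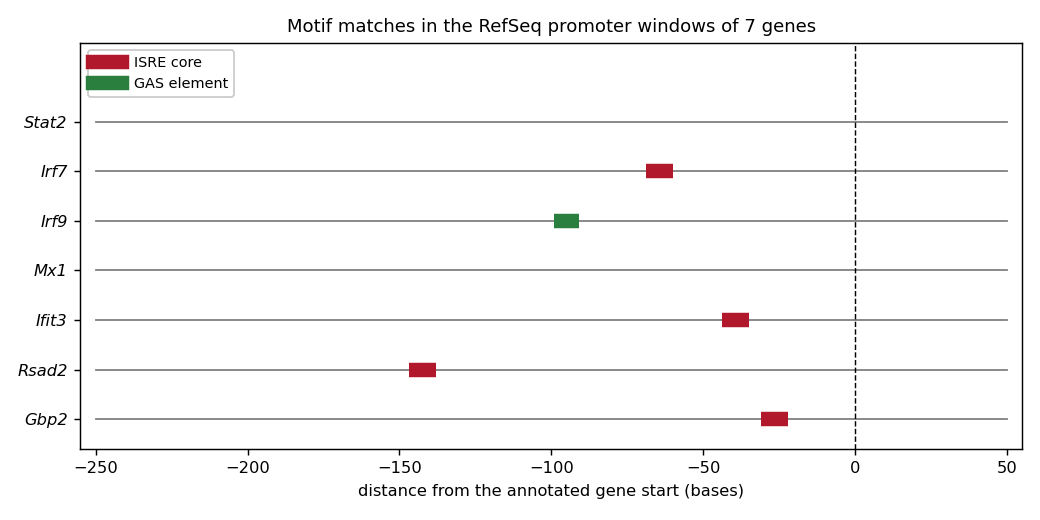
Matches to the ISRE core (red) and the GAS element (green) in the promoter windows of 7 genes, by distance from the annotated gene start in bases; each grey line is 1 window. The ISRE core is seen in Irf7, Ifit3, Rsad2 and Gbp2 and the GAS element in Irf9, and the windows of Stat2 and Mx1 hold neither without a mismatch.

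Array medians ran from 8.13 to 8.16 and pairwise correlations from 0.991 to 0.997 over 28826 probe sets. The quantile normalization of these values makes the medians nearly equal, and differences in level between genes raise such correlations. Neither therefore shows that the samples were alike. The 12 measured sensory neuron genes spanned a wide range of levels in the 8 samples labelled as DRG. Tubb3, Uchl1 and Prph had means of 13.36, 13.17 and 12.83, and Rbfox3, Avil and Isl1 of 9.64, 9.63 and 9.24. The nociceptor channel genes Scn10a and Scn11a had means of 8.73 and 7.26. Some arrays stood apart in marker genes. The 25 measured skeletal muscle genes had a mean deviation between -1.03 and -0.67 in HDACI arrays and between -0.90 and 2.08 in vehicle arrays, with vehicle replicates 1, 2 and 4 high. Vehicle replicate 4 was also high in nociceptor genes, as for the sodium channel gene Scn10a, which was between 8.40 and 8.67 in HDACI arrays and, in vehicle arrays, at 10.06 in replicate 4 and between 8.24 and 8.74 in the others. In whole ganglia, more cells of a type and more RNA per cell cannot be told apart.

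None of the 9 genes differed between HDACI and vehicle after correction over all probe sets. In limma, 0 of 9 passed an adjusted p of 0.05 (adjusted p = 1.0 for each), as did 0.0% of all 28826 probe sets. At an unadjusted p of 0.05, 1 of 9 passed, Gbp2, which was higher in HDACI ganglia, against 3.55% of all probe sets. Gbp2 was also the only one of the 9 whose groups did not overlap, with HDACI higher, as in 1.01% of all probe sets, and 0 of 9 were separated with HDACI lower, as in 1.09% of all probe sets. The difference was above 0 for 8 of the 9, with a median of 0.16 against 0.00 over all genes, but this count fell to 3 of 9 without HDACI replicate 3, to 5 of 9 with limma's array weights and to 5 of 9 once the muscle score of each array entered as a covariate.

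In the signal transducers and regulators Stat2, Irf7 and Irf9, HDACI replicate 3 was highest and vehicle replicate 3 next. Of the other genes only Mx1 had this order. Irf7, which amplifies interferon production, was at 8.66, 8.85, 10.24 and 9.04 in HDACI replicates 1 to 4, against 9.0, 8.89, 9.49 and 8.92 in vehicle replicates 1 to 4. Its groups overlapped, and the difference of 0.12 was small beside its standard error (SE 0.32, 95% interval -0.60 to 0.84, limma unadjusted p = 0.719). Stat2, the transducer in ISGF3, was at 10.06, 10.03, 10.53 and 9.98 in HDACI arrays, against 9.96, 10.09, 10.25 and 10.04 in vehicle arrays. Irf9, its DNA-binding partner, was at 9.78, 9.75, 10.26 and 9.87 in HDACI arrays, against 9.83, 9.75, 10.12 and 9.83 in vehicle arrays. In both genes the 3 other HDACI arrays lay within or just outside the range of the other vehicle arrays, and the differences of 0.07 (SE 0.12, limma unadjusted p = 0.602) and 0.03 (SE 0.12, limma unadjusted p = 0.805) did not pass the test.

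Among the antiviral effectors, Mx1 had the same highest and next highest arrays as the regulators. Mx1 was at 8.98, 9.29, 10.33 and 9.77 in HDACI arrays, against 9.67, 9.32, 10.13 and 9.32 in vehicle arrays. It had the only difference below 0, -0.02 (SE 0.29, 95% interval -0.68 to 0.64, limma unadjusted p = 0.952), and its vehicle values lay within the HDACI range.

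Rsad2, Isg15 and Ifit3 were raised in HDACI replicate 3 but not in vehicle replicate 3. Rsad2 was at 7.35, 7.59, 9.90 and 7.42 in HDACI arrays, against 7.52, 7.76, 7.34 and 7.28 in vehicle arrays. Apart from the high array its values lay between 7.28 and 7.76, so 1 ganglion sample carried nearly all of the spread. Isg15 was at 7.24, 7.39, 8.54 and 7.40 in HDACI arrays, against 7.61, 7.43, 7.58 and 7.31 in vehicle arrays. Ifit3 was at 6.74, 7.01, 7.89 and 7.49 in HDACI arrays, against 7.0, 7.02, 6.95 and 7.02 in vehicle arrays. The Ifit3 values of vehicle arrays were nearly equal (SD 0.03, n = 4), whereas those of HDACI arrays lay on both sides of them (SD 0.51, n = 4). The differences were 0.59 for Rsad2 (95% interval -0.58 to 1.75, limma unadjusted p = 0.281), 0.16 for Isg15 (-0.42 to 0.74, limma unadjusted p = 0.549) and 0.29 for Ifit3 (-0.20 to 0.77, limma unadjusted p = 0.213). Without HDACI replicate 3 that of Rsad2 was -0.02, that of Isg15 -0.14 and that of Ifit3 0.08 (limma unadjusted p = 0.601 for Ifit3). Without HDACI replicate 1 the Ifit3 difference was 0.47 (limma unadjusted p = 0.0304, adjusted p = 0.995), and with array weights it was 0.14.

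Mx2, the paralog of Mx1, had a different order of arrays. It was at 10.02, 10.89, 10.76 and 11.12 in HDACI arrays, against 10.23, 10.03, 10.60 and 10.22 in vehicle arrays. HDACI replicates 2, 3 and 4 were above every vehicle array and HDACI replicate 1 was below every one. The difference of 0.43 (SE 0.22, 95% interval -0.07 to 0.93, limma unadjusted p = 0.0856; exact permutation p = 0.2, two-sided) did not pass the test. It was 0.65 without HDACI replicate 1 (limma unadjusted p = 0.00161, adjusted p = 0.995) and 0.17 once the muscle score entered as a covariate (limma unadjusted p = 0.59). HDACI replicate 4, the highest array for Mx2, was also the highest for 12 of 14 macrophage markers and 7 of 7 fibroblast markers, against 2379 of all 14497 genes. The mean deviation of the macrophage markers ran from -0.16 to 0.45 in HDACI arrays and from -0.12 to 0.08 in vehicle arrays. That of the fibroblast markers ran from -0.09 to 0.41 in HDACI arrays and from -0.31 to 0.10 in vehicle arrays. HDACI replicates 1 and 2, in which Mx2 was at 10.02 and 10.89, had close marker means. These were -0.16 and -0.14 for macrophages and -0.09 and 0.02 for fibroblasts. The part of these cells in the Mx2 values was not tested.

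Gbp2 was the one gene with separate groups and a small, even difference. It was at 11.56, 11.57, 11.46 and 11.52 in HDACI arrays, against 11.36, 11.23, 11.24 and 11.43 in vehicle arrays. The lowest HDACI value, in replicate 3, was 11.46 and the highest vehicle value 11.43, so the gap between the groups was narrow. The mean was 11.53 ± 0.05 in HDACI arrays and 11.31 ± 0.10 in vehicle arrays (SD, n = 4 each), a difference of 0.21 or 1.16-fold (SE 0.06, 95% interval 0.08 to 0.34, limma unadjusted p = 0.00565, adjusted p = 1.0). The exact permutation p was 0.0286, two-sided, the smallest that 4 against 4 arrays can give. Once the muscle score entered as a covariate, the difference was 0.24 (limma unadjusted p = 0.0231), and it remained past an unadjusted p of 0.05 without any one array, but in none of these fits after adjustment.

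**Figure D2:**
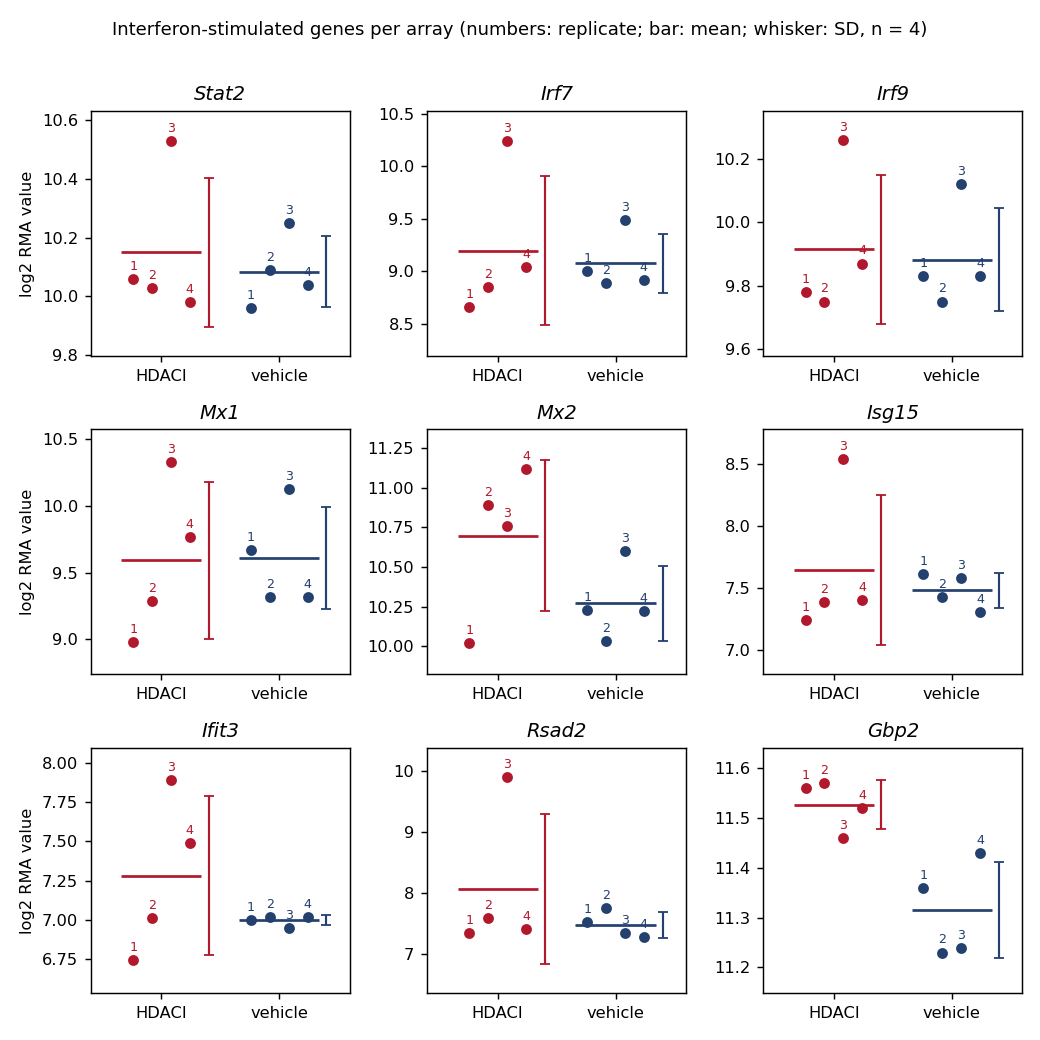
Log2 RMA values of the 9 genes, 1 panel a gene with its own axis; points are arrays numbered by replicate, horizontal bars are means and whiskers are SD (n = 4 each), with HDACI on the left and vehicle on the right. HDACI replicate 3 is the highest point in 7 panels, such as Irf7 at 10.24 and Rsad2 at 9.90, and Gbp2 is the panel in which the groups do not overlap.

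Seen by array, the 9 genes were high in HDACI replicate 3. It was the highest of the 8 arrays for 7 of 9 genes, all but Mx2 and Gbp2, against 16.3% of all probe sets. The mean deviation of the 9 genes from their own means was -0.30, -0.09, 0.75 and 0.05 in HDACI replicates 1 to 4, against -0.11, -0.18, 0.06 and -0.19 in vehicle replicates 1 to 4. HDACI replicate 1 lay at the other end and was the lowest array for 5 of 9 genes, Irf7, Mx1, Mx2, Isg15 and Ifit3, against 8.2% of all probe sets. The highest and the lowest of the 8 arrays for this group thus came from the same treatment. These counts describe arrays that were compared after their values had been seen, and no test was made of them.

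HDACI replicate 3 exceeded the mean of the 3 other HDACI arrays by 2.45 for Rsad2, a 5.46-fold excess that was the largest of all 28826 probe sets. The excess was 1.39 for Irf7 (2.63-fold, rank 9), 1.19 for Isg15 (2.29-fold, rank 11), 0.98 for Mx1 (1.97-fold, rank 18) and 0.81 for Ifit3 (1.76-fold, rank 40). Stat2 and Irf9 had smaller excesses of 0.50 and 0.46, and Mx2 and Gbp2 had none to speak of, at 0.08 and -0.09. In all, 17 probe sets exceeded the others by at least 1 in this array, of which 15 carried 1 symbol. Of these 15, 9 were among the genes followed here or on the lists of interferon pathway genes used below. Besides Rsad2, Irf7 and Isg15 they were the oligoadenylate synthetase genes Oas1b (1.90), Oas1a (1.52), Oas1i (1.35) and Oas2 (1.02), the Isg15 protease gene Usp18 (1.80) and the receptor transporter gene Rtp4 (1.08). Oas1a, Oas1b and Oas1i are near copies of one another, and a probe set of one may read the others. The other symbols, named after their values were seen, were the mast cell protease genes Mcpt1 (1.98) and Cpa3 (1.49), the receptor gene Klrk1 (1.55), the class I histocompatibility gene RT1-S3 (1.44), Slfn4 (1.14) and LOC108353138 (1.16).

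Vehicle replicate 3 showed part of the same pattern at a lower level. It was above all 3 other vehicle arrays for 5 of 9 genes, Stat2, Irf7, Irf9, Mx1 and Mx2, against 20.2% of all probe sets. Its excess over their mean was 0.70 for Mx1 (1.62-fold), 0.55 for Irf7 (1.47-fold), 0.44 for Mx2, 0.31 for Irf9 and 0.22 for Stat2. It was 0.13 for Isg15 and below 0 for Ifit3 (-0.07), Gbp2 (-0.10) and Rsad2 (-0.18). The transducers and Mx1 were therefore raised in an array of each group, whereas Rsad2 was raised in HDACI replicate 3 alone and Ifit3 in HDACI replicates 3 and 4. Of the 21 probe sets with an excess of at least 1 in vehicle replicate 3, 8 carried 1 symbol. Of these 8, 1 was on those lists, Ifit1 (1.26), a relative of Ifit3.

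**Figure D3:**
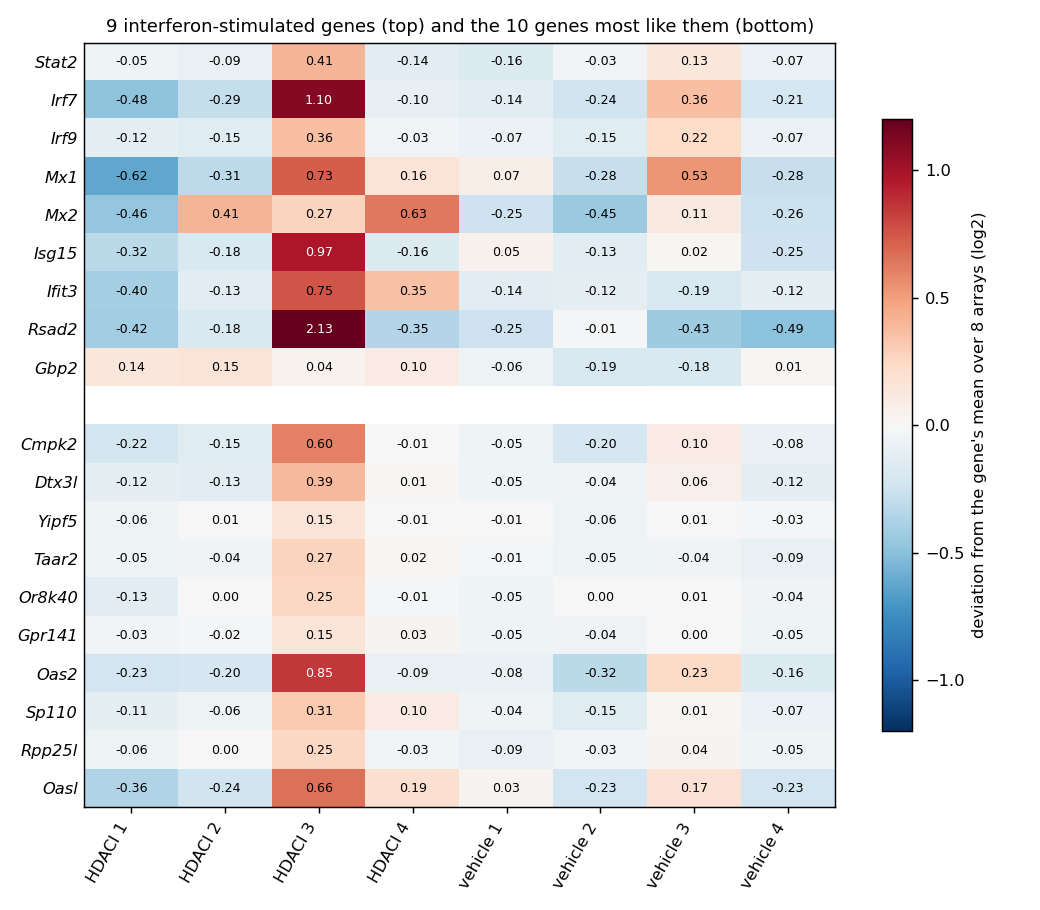
Deviation of each gene from its own mean over 8 arrays (log2, colour and number) for the 9 interferon-stimulated genes above and, below, the 10 other genes whose values followed their mean most closely; columns are arrays, HDACI replicates 1 to 4 left of vehicle replicates 1 to 4. The column of HDACI replicate 3 is above 0 for every gene shown, from 0.04 for Gbp2 to 2.13 for Rsad2.

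Across the 8 arrays most of the genes varied together, and how closely they did so depended on HDACI replicate 3. Of the 36 pairs, 31 had a Pearson's r above 0 and 13 an r of at least 0.8, with a median of 0.69. The same genes set against the 14488 other genes had a median r of 0.04, and 1.12% of those pairs reached 0.8. Without Mx2 and Gbp2, the 21 pairs of the 7 other genes ran from 0.60 to 0.96 (median 0.85). Mx2 followed the others loosely (median r 0.37, 0.19 to 0.61) and Gbp2 did not (median r -0.12, -0.32 to 0.38). Taking each array's deviation from its own group mean left the median of the 36 pairs at 0.71, so the covariation lay within the groups. On these deviations all 8 pairs with Gbp2 were below 0 (median r -0.52, -0.60 to -0.19). On the values themselves, without HDACI replicate 3, the median r of these 8 pairs was -0.49 (-0.65 to 0.37), with 2 above 0. For all 36 pairs without that array the median r was 0.18, with 23 pairs above 0 and 4 of at least 0.8. Spearman's rho, which gives 1 far array no more than a rank, had a median of 0.33 over the 8 arrays.

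Irf7 and Mx1 passed the adjusted threshold by both measures. Their r was 0.91 (exact permutation p = 4.96e-05, adjusted over 36 pairs 0.00179) and their rho 0.98 (exact permutation p = 0.000397, adjusted 0.0143). Without the 2 arrays farthest from the Irf7 median, HDACI replicate 3 and vehicle replicate 3, r was 0.95. Irf7 and Irf9 had an r of 0.96 (exact permutation p = 0.00131, adjusted 0.0161), a rho of 0.90 (exact permutation p = 0.00456, adjusted 0.0821) and an r of 0.66 without those 2 arrays. Pairs past an adjusted p of 0.05 numbered 5 of 36, all among Irf7, Irf9, Mx1 and Isg15. The genes were chosen with earlier results of these arrays known, so these p-values are no independent support.

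Other pairs rested on the far arrays. Isg15 and Rsad2 had an r of 0.95 (exact permutation p = 0.0386, adjusted 0.117) and a rho of 0.55 (exact permutation p = 0.171, adjusted 0.649). Without HDACI replicate 3 and vehicle replicate 1, the arrays farthest from the Isg15 median, r was 0.18. Stat2 and Irf7 had an r of 0.92 (exact permutation p = 0.017, adjusted 0.0765) and a rho of 0.31 (exact permutation p = 0.462, adjusted 0.693), with an r of -0.67 without both replicates numbered 3. Stat2 therefore shared the high arrays of Irf7 but not the order of the other 6. Ifit3 shared more with Mx2 in the 7 arrays without HDACI replicate 3 (r 0.72) than with Rsad2 (r 0.07) or Isg15 (r 0.15), a difference that was not tested.

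**Figure D4:**
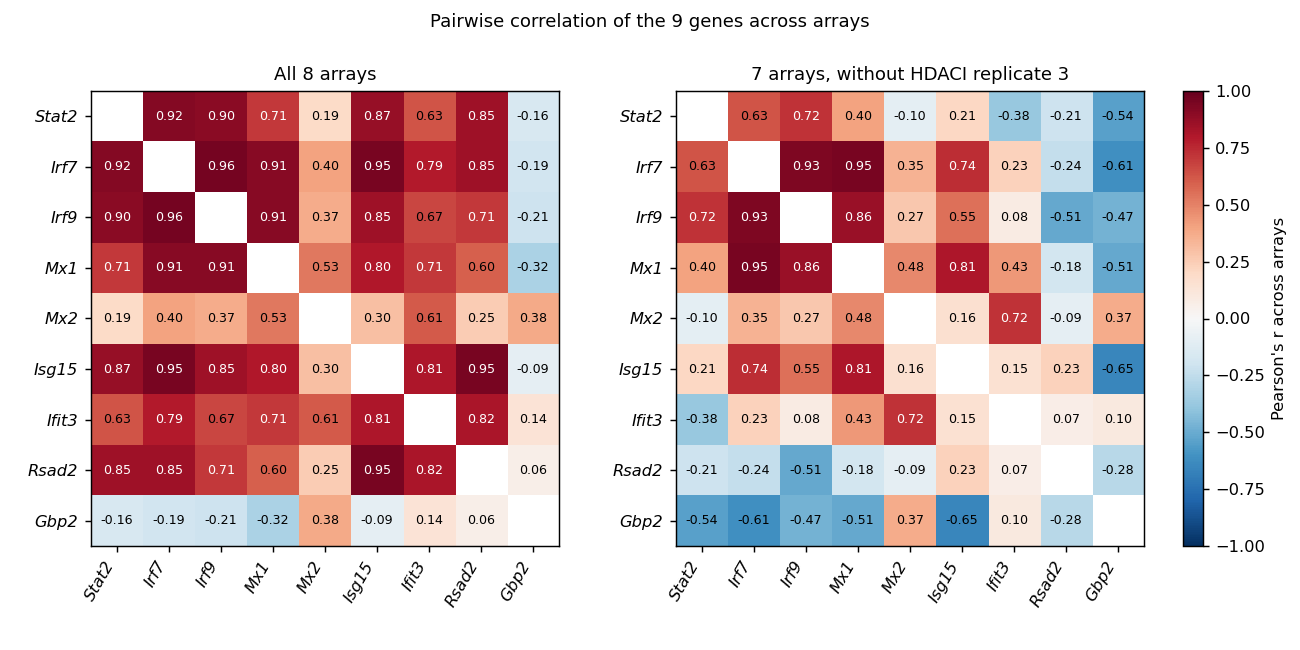
Pearson's r between the 9 genes, across all 8 arrays on the left and across 7 arrays without HDACI replicate 3 on the right; colour and number give r. The block of high values spans 7 genes on the left (0.60 to 0.96) and on the right is left mainly among Irf7, Irf9 and Mx1 (0.86 to 0.95), with Rsad2 and Gbp2 below 0 against most others.

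The genes whose values followed the mean of the 9 most closely were in part interferon targets too. Of the 10 with the highest r, 5 were on the list of other type I interferon targets: Cmpk2 (0.98), the mitochondrial nucleotide kinase gene that neighbours Rsad2 in mammals, Dtx3l (0.97), a ubiquitin ligase gene, Oas2 (0.95), Sp110 (0.95), a nuclear body gene, and Oasl (0.94). Cmpk2 was at 8.64, 8.71, 9.46 and 8.85 in HDACI arrays, against 8.81, 8.66, 8.96 and 8.78 in vehicle arrays, and so repeated the order of Irf7 at the top. Oasl, which of these 10 had the highest r without HDACI replicate 3 (0.91), was at 7.87, 7.99, 8.89 and 8.42 in HDACI arrays, against 8.26, 8.0, 8.40 and 8.0 in vehicle arrays. The 5 others were Yipf5, Taar2, Or8k40, Gpr141 and Rpp25l, with r from 0.94 to 0.96. Taar2, Or8k40 and Gpr141 were dim, with means of 4.68, 4.35 and 5.52, and in HDACI replicate 3 exceeded the mean of the other 7 arrays by 0.31, 0.28 and 0.17. All r were computed over the same 8 arrays, in which 1 array carries most of the spread of the mean.

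The rest of the pathway was read from lists of genes by role. Of 48 measured type I interferon targets other than the 9, 38 were higher and 10 lower in HDACI arrays, with a median difference of 0.06, and 0 passed an unadjusted p of 0.05 in limma. Without HDACI replicate 3, 20 of 48 were higher. The array pattern was clearer: 35 of 48 (72.9%) were highest in HDACI replicate 3, against 15.2% of all genes, and 27 of 48 (56.2%) were higher in vehicle replicate 3 than in the other vehicle arrays, against 21.5% of all genes. An r of at least 0.8 with the mean of the 9 was reached by 20 of 48 (41.7%), against 1.41% of all genes. At the other end Pnpt1, an exoribonuclease gene, had an r of -0.47.

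Nucleic acid sensors divided in their values. Of 12 measured, 5 had an r of at least 0.8, among them the RNA-dependent kinase gene Eif2ak2 (0.90), the RNA helicase gene Dhx58 (0.89) and the DNA sensor gene Tlr9 (0.87). Without HDACI replicate 3 their r was 0.84, 0.69 and 0.25. Dhx58 was at 7.27, 7.43, 8.28 and 7.60 in HDACI arrays, against 7.66, 7.44, 7.91 and 7.69 in vehicle arrays. Aim2, the inflammasome DNA sensor gene, had an r of -0.19, and 0 of the 12 passed an unadjusted p of 0.05 in limma.

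Genes upstream of the 9 had lower correlations with their mean over the 8 arrays. Among 5 measured interferon genes, 0 had an r of at least 0.8, and the highest were Ifna4 (0.36), Ifnk (0.35) and Ifnb1 (0.31), with Ifna5 lowest at -0.03. Ifnb1, the interferon beta gene, was at 6.46, 6.52, 6.55 and 6.41 in HDACI arrays, against 6.40, 6.57, 6.54 and 6.51 in vehicle arrays. Ifnb1, Ifnk and Ifng were dim, with means at percentiles 23.2, 24.1 and 20.2 of all probe sets. Dim probe sets are compressed, so these nearly equal values cannot show whether the transcripts were level. Of 6 measured receptor and kinase genes 0 reached 0.8. Jak1 was highest (0.60), followed by the receptor genes Ifnar1 (0.25) and Il10rb (0.21), and Jak2 was lowest (-0.20). This order rested on HDACI replicate 3: without it r was 0.72 for Jak2, 0.62 for Il10rb, 0.45 for Ifnar1 and 0.16 for Jak1, and the median of the 6 genes was 0.47 in place of 0.16, beside 0.52 in place of 0.76 for the other type I targets. Of 11 other STAT and IRF genes 0 reached 0.8 as well, with Irf8 (0.59), Irf5 (0.49) and Irf4 (0.49) highest and Stat3 (-0.51) lowest. Of the 11, 1 was lower in HDACI at an unadjusted p of 0.05, against 280 of all 14497 genes. Stat4, which transmits interleukin 12 signals, was at 7.29, 7.30, 7.38 and 7.30 in HDACI arrays, against 7.53, 7.58, 7.40 and 7.57 in vehicle arrays. Its groups did not overlap, with HDACI lower, as in 1.09% of all probe sets. The gap was narrow, between 7.38 in HDACI replicate 3 and 7.40 in vehicle replicate 3. Vehicle replicates 1, 2 and 4, at 7.53 to 7.58, were also the arrays high in skeletal muscle genes. A fit with the muscle score is not reported here for Stat4. The difference between the groups was -0.20 (SE 0.05, limma unadjusted p = 0.00455, adjusted p = 1.0).

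Targets of interferon gamma other than Gbp2 were mixed. Of 10 measured, 2 had an r of at least 0.8, the immunity-related GTPase genes Ifi47 (0.84) and Irgm (0.81), followed by Igtp (0.46), and Gbp5, a relative of Gbp2, was lowest (-0.21). Gbp5 was at 10.50, 10.46, 10.36 and 10.57 in HDACI arrays, against 10.44, 10.23, 10.46 and 10.55 in vehicle arrays, so its groups overlapped, unlike those of Gbp2. The difference of 0.05 (SE 0.08, limma unadjusted p = 0.488) did not pass the test, and 0 of the 10 passed an unadjusted p of 0.05.

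Antigen processing genes had 7 of 11 members highest in HDACI replicate 3, against 15.2% of all genes, and 2 of 11 higher in HDACI at an unadjusted p of 0.05, against 205 of all 14497 genes. Psmb9, an immunoproteasome subunit gene, was at 9.72, 9.92, 10.07 and 9.53 in HDACI arrays, against 9.60, 9.59, 9.53 and 9.22 in vehicle arrays. Tap2, which encodes a subunit of the peptide transporter, was at 9.17, 9.20, 9.36 and 8.50 in HDACI arrays, against 8.58, 8.82, 8.67 and 8.63 in vehicle arrays. In both genes HDACI replicate 4 fell among or below the vehicle arrays. The differences were 0.33 for Psmb9 (limma unadjusted p = 0.0313, adjusted p = 1.0) and 0.38 for Tap2 (limma unadjusted p = 0.0476, adjusted p = 1.0). The highest r of the list were those of the proteasome activator gene Psme1 (0.89), Psmb10 (0.80) and Tap1 (0.79), and the lowest that of Tapbpl (0.17).

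Negative regulators of the pathway held 2 of 10 genes higher in HDACI at an unadjusted p of 0.05, against 205 of all 14497 genes, and both encode suppressors of cytokine signalling. Socs3, which is induced mainly through Stat3, was at 9.97, 9.72, 9.44 and 9.94 in HDACI arrays, against 9.55, 9.41, 9.55 and 9.40 in vehicle arrays. Its lowest HDACI value was in replicate 3, where the interferon targets were highest, and its r with the mean of the 9 was -0.29. Socs2 was at 9.94, 9.92, 9.92 and 9.88 in HDACI arrays, against 9.87, 9.62, 9.79 and 9.49 in vehicle arrays. Its groups did not overlap, with HDACI higher, as in 1.01% of all probe sets, but the gap from 9.87 to 9.88 was narrow. The differences were 0.29 for Socs3 (limma unadjusted p = 0.0315, adjusted p = 1.0) and 0.22 for Socs2 (limma unadjusted p = 0.0223, adjusted p = 1.0). The RNA editing gene Adar had the highest r of this list (0.85), followed by Socs1 (0.67) and the nuclease gene Trex1 (0.64).

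Some markers of immune cells were high in HDACI replicate 3. The 8 natural killer cell genes had a mean deviation of 0.29 in that array. The range was -0.14 to 0.29 in HDACI arrays and -0.09 to 0.11 in vehicle arrays. Of these genes 4 of 8 were highest in HDACI replicate 3, against 15.2% of all genes. The mean there rested largely on Klrk1, at 9.71 with a mean of 8.71 over all arrays, and Nkg7, at 8.19 with 7.62. Klrd1, Gzma, Prf1, Ncr1 and Klrb1 were dim, with means from 5.67 to 6.86. Klrk1, the gene in this list with the widest spread, was at 8.08, 8.06, 9.71 and 8.33 in HDACI arrays, against 10.08, 8.01, 9.33 and 8.09 in vehicle arrays. It was thus highest in vehicle replicate 1, where the mean deviation of the 9 genes was -0.11. Of 11 T lymphocyte genes 3 were highest in HDACI replicate 3 and 3 in HDACI replicate 4, against 2207 and 2379 of all 14497 genes. Their mean deviation was 0.12 in HDACI replicate 3 and higher, at 0.15, in HDACI replicate 4 and vehicle replicate 1. It ran from -0.14 to 0.15 in HDACI arrays and from -0.15 to 0.15 in vehicle arrays. The 7 plasmacytoid dendritic cell genes had a mean deviation of 0.11 in HDACI replicate 3, against -0.06 to 0.02 in the others. Only 1 of the 7 (14.3%) was highest in that array, against 15.2% of all genes. This was Bst2, itself an interferon target, at 7.82 there against 6.99 to 7.39 in the rest. Ly6d, Tcf4, Spib, Runx2, Pacsin1 and Ccr9 were each higher in another array, so the mean of the list rested largely on Bst2. Of this list Ccr9 was dim on all arrays, from 5.76 to 5.98 in HDACI arrays and from 5.81 to 5.86 in vehicle arrays. Tcf4 and Runx2, also on it, had means of 11.53 and 9.84, and Siglech was not analysed here. The part of these cells in the values of the 9 genes was not tested. Skeletal muscle genes were low in HDACI replicate 3 (-0.68) and in vehicle replicate 3 (-0.90), and also in HDACI replicate 1 (-0.73), the lowest array for the 9 genes. The mean of the 10 reference genes deviated by at most 0.05 in any array.

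**Figure D5:**
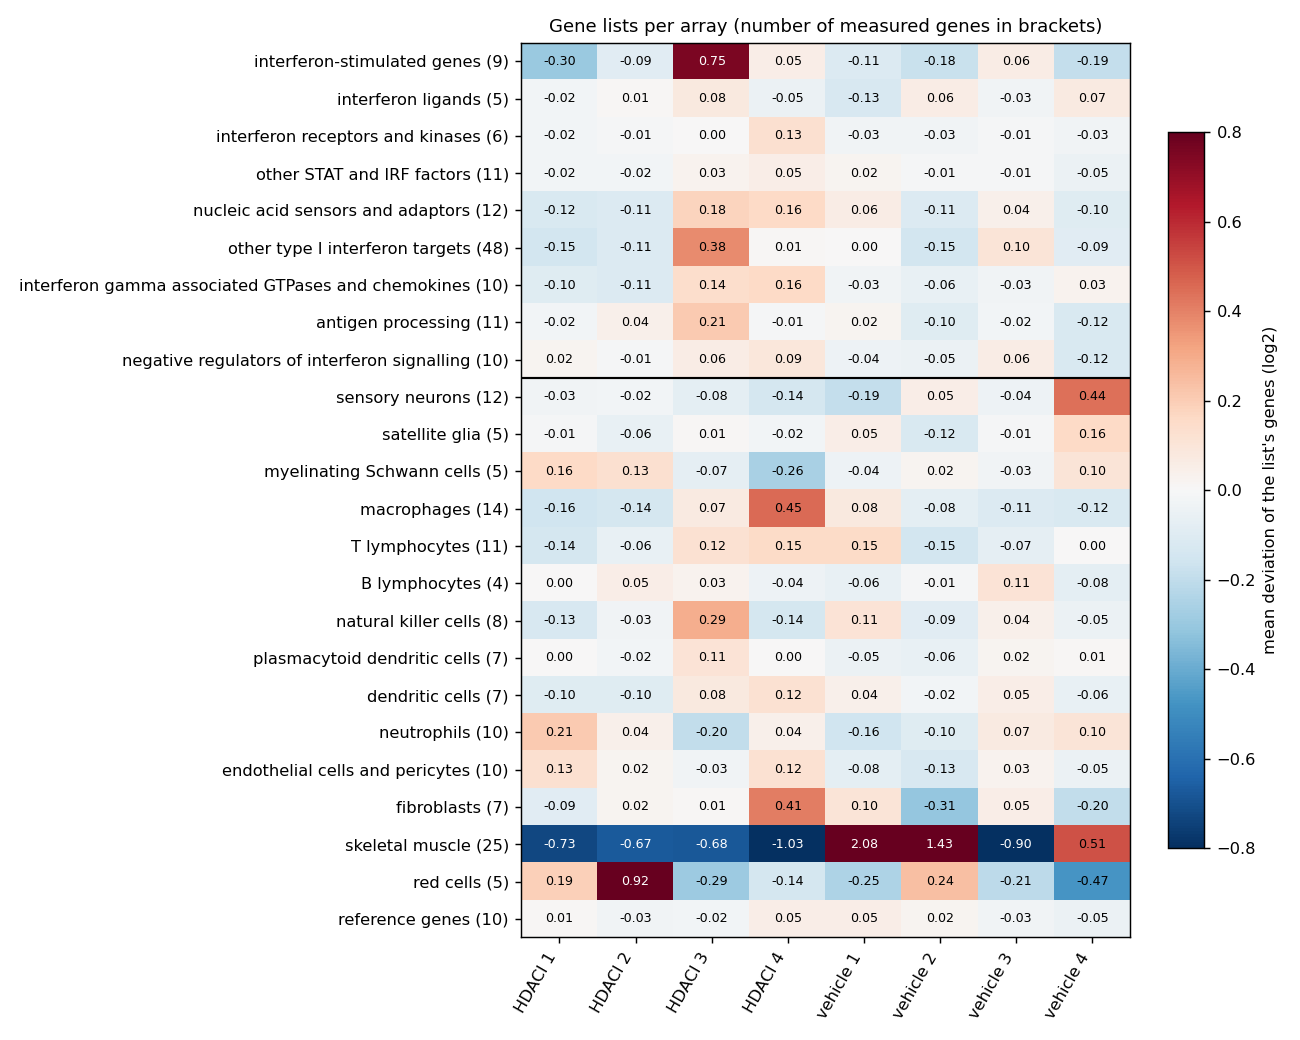
Mean deviation of each gene list per array (log2, colour and number; the colour scale ends at 0.8), with the 9 genes and interferon pathway lists above the line and cell type and reference lists below it; columns are arrays, HDACI replicates 1 to 4 left of vehicle replicates 1 to 4. The 9 genes (0.75) and the other type I interferon targets (0.38) stand out in HDACI replicate 3, and interferon ligands, receptors and other STAT and IRF genes lie between -0.13 and 0.13 in every array.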

How the data were processed

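RNA of 8 injured L5 DRG samples (4 HDACI, 4 vehicle; biological replicates per the study's methods) was hybridized to Affymetrix Rat Gene 1.0 ST arrays. The authors made the deposited log2 values with RMA in the Bioconductor package oligo (versions not given in the sources used here): background correction, quantile normalization and a summary per probe set. A change common to all transcripts would not be visible in such values, dim probe sets are compressed, and precision is limited by how few arrays there are.

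Of 28826 probe sets, 15209 carried 1 symbol in the platform annotation (14497 genes), 306 several and 13311 none. Per gene the probe set with the highest mean was used. Symbols of 15178 matched a gene in RefSeq (GRCr8). Differences, HDACI minus vehicle, were tested with limma 3.58.1 (lmFit, eBayes, R 4.3.3) on all probe sets, two-sided, with Benjamini-Hochberg adjustment, and by exact permutation over 70 relabellings. Pairs of genes were correlated over the 8 arrays, with exact permutation over 40320 pairings counting values of r of at least the same size, adjusted over 36 pairs. The fit and the correlation were tested on simulated data. Array weights, a block, a dim filter, centring, a second quantile normalization, an intensity trend, a muscle score and leaving out arrays were tried. The 9 genes and the 23 lists were chosen with earlier results of these data known. Named were the 9 genes, the 10 genes of highest r with their mean deviation, the 3 highest and the 1 lowest r of each interferon list and its genes past an unadjusted p of 0.05; genes named besides these, such as Klrk1, Bst2, Scn10a, Scn11a and those with large values in 1 array, were chosen after their values were seen. Cell type lists were given as means per array.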

Additional observations from a re-analysis of the deposited data

Results flagged for a closer look

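In 3 of the 9 genes, HDACI replicate 3 lay far above the other HDACI arrays by Dixon's ratio, the gap to the nearest array over the range of the 4, which passed its 95% limit. Rsad2 was at 9.90 in this array (ratio 0.907), Isg15 at 8.54 (0.873) and Stat2 at 10.53 (0.849). Among vehicle arrays the largest ratio was 0.828, for Irf7 in vehicle replicate 3, just under the limit. Chance alone flags about 1 in 20 groups, and over all probe sets 5.7% of HDACI groups and 5.79% of vehicle groups passed the limit. The 3 genes share an array, so they are not separate observations.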

How the results depend on the processing

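Directions of the 9 genes held in 57 of 63 fits with another setting and in 66 of 81 fits that left out 1 array or both replicates numbered 3. Array weights reversed Stat2 (-0.01), Irf7 (-0.08) and Irf9 (-0.05), left 5 genes higher in HDACI and raised the probe sets past an unadjusted p of 0.05 to 2045 from 1022. The skeletal muscle covariate reversed Stat2 (-0.05), Irf7 (-0.13) and Irf9 (-0.13) and left 5 of the 9 and 24 of 48 other targets higher. Without replicate 3 of both groups, chosen after seeing the data, Stat2 (0.0, just below 0), Irf7 (-0.09), Irf9 (-0.01), Isg15 (-0.11) and Rsad2 (-0.07) reversed, 3 of the 9 and 23 of 48 other targets were higher, the median r was 0.11 and 0 pairs passed an adjusted p (2 an unadjusted p of 0.05, exact permutation). With Spearman's rho the median was 0.33 and 1 pair passed. With 1 mismatch 7 promoters held the GAS element. Causes were not tested.

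Leaving out each array in turn gave ranges of -0.06 to 0.12 for Stat2, -0.23 to 0.30 for Irf7, -0.08 to 0.11 for Irf9, -0.26 to 0.18 for Mx1, -0.14 to 0.29 for Isg15, 0.08 to 0.47 for Ifit3 and -0.02 to 0.83 for Rsad2. HDACI replicate 3 set the lowest value of each of these. Genes higher in HDACI numbered 3 to 9, genes past an unadjusted p of 0.05 1 to 3 (3 without HDACI replicate 1, 2 without vehicle replicate 3), and probe sets past it 708 to 1758 (the highest without vehicle replicate 1). The median r was 0.18 to 0.81 (lowest without HDACI replicate 3), pairs past an adjusted p 1 to 5, and other targets higher 20 to 42. Gbp2 stayed past an unadjusted p of 0.05 in every fit (0.18 to 0.26). Each of the 9 genes had 1 probe set, so no other probe set could be tried.

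The replicate numbers showed no pairing of the samples over all probe sets: same-numbered arrays had correlations of deviations of -0.04, 0.01, 0.01 and -0.28. Such correlations cannot show that the samples were unpaired. With the number as a replicate block the median difference of the 9 was 0.16, the median r 0.60, the r of Irf7 and Mx1 0.65, Gbp2 had an unadjusted limma p of 0.0144 and 803 probe sets passed an unadjusted p of 0.05.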
